A study of Mus musculus with 26 samples.

Results

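The mRNAs of the integrated stress response were followed through a chase of labelled RNA in murine oligodendrocyte progenitor cells (OPCs) and in the oligodendrocytes (OLs) made from them. The set was a list of 10 gene symbols, namely Eif2ak3, Atf4, Atf5, Atf3, Ddit3, Asns, Trib3, Chac1, Ppp1r15a and Xbp1, and its members were the table rows that carry one of these symbols. Of the 10 genes, 9 were listed among the 10104 transcripts of the series, 5 of them for OPCs and 9 for OLs. Atf3 was listed for neither cell type.

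The integrated stress response is the pathway by which a cell that lacks amino acids or holds unfolded protein lowers its rate of translation initiation. Kinases that each sense a stress phosphorylate the initiation factor eIF2, most mRNAs are then translated less, and a few mRNAs with upstream reading frames, Atf4 among them, are translated more. In the oligodendrocyte lineage this pathway is known for its part in disorders of myelin, and loss-of-function mutations of eIF2B, the exchange factor that phosphorylated eIF2 inhibits, cause vanishing white matter disease.

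Values of replicates are given in the order of their numbers, 1 to 3 for OPCs and 1 to 2 for OLs. All cells were of the mouse strain 129S/SvEv. OPCs had been derived from epiblast stem cells and were grown with bFGF and PDGFA, so they are a culture model and not cells taken from brain. OLs had been differentiated from such OPCs in medium with thyroid hormone (T3), noggin, IGF-1, cyclic AMP and NT3, in which they spent 40 h before labelling began, and the study describes such cultures as a mix of mature and pre-differentiated oligodendrocytes with some remaining OPCs. Both cell types received 5-ethynyluridine (5-EU), a uridine analogue to which biotin can be coupled, for 24 h, and uridine then took its place. Labelled RNA was pulled down and sequenced at 0, 1, 2, 4 and 6 h of this chase in 3 OPC and 2 OL replicates, which gave 15 and 10 libraries. The study calls the replicates biological, and states that the OLs match a pair of the OPC replicates without giving their numbers.

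Levels are in FPKM, a measure of sequenced fragments that allows for the length of a transcript and the mapped reads of its library, and those at 1 to 6 h carry the scale of a labelled spike-in RNA. The number of reads behind a value is unknown, so no counting error can be given. No background of the pull-down was subtracted, since the control without biotin was not analysed here, and its part in the low values late in the chase was not tested. The median transcript of a library was at 11% to 17.7% of its 0 h level after 6 h in OPCs and at 31.5% to 36.6% in OLs, and 15.7% to 21.6% of transcripts were listed at 0 in the 6 h libraries of OPCs against 0.790% to 4.08% in those of OLs. All 8 OL markers examined were listed for OLs, with summed 0 h levels of 2794 to 6134 FPKM, and 2 of them (Mbp and Cnp) for OPCs, with 37.6 to 55.1 FPKM. The 4 OPC markers (Pdgfra, Cspg4, Ptprz1 and Gpr17) were listed for both and summed to 186 to 307 FPKM in OPCs and to 501 to 530 FPKM in OLs. Their sum thus did not set OPCs apart. A single abundant marker can carry such a sum, and the single markers were not compared. Of 4 astrocyte markers 1 was listed for OPCs (22.9 to 37.0 FPKM) and 3 for OLs (85.9 to 106 FPKM), of 4 neuronal markers only Syt1 and only for OLs (1.38 to 3.06 FPKM), and of the 4 microglial and 4 pluripotent cell markers none. The part of these cells in the results below was not tested, results with libraries set to equal medians are given beside those on the spike-in scale, and in bulk RNA fewer cells of a type and less RNA per cell cannot be told apart.

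The promoters of the members were searched for the letters that ATF4 is known to recognise together with a C/EBP partner, because several members are known targets of ATF4. The motif TGATGNAA was searched on both strands of the 300 bases around each start site in RefSeq (build GRCm38.p6). It was found in 4 of 11 promoters of the 10 genes (Atf5 has 2) and in 3.97% of all 32851 promoters. Each is shown on the strand on which it reads, with the motif in capitals.
Asns, chr6:7693215-7693242, reverse strand: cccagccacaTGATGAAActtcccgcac
Trib3, chr2:152344029-152344056, forward strand: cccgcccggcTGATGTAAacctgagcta
Chac1, chr2:119351039-119351066, reverse strand: ctggcaggagTGATGCAAcggcagggaa
Atf3, chr1:191183426-191183453, forward strand: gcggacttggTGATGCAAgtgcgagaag
The match lies at positions -23 to -16 from the start site of Asns, 15 to 22 of Trib3, -193 to -186 of Chac1 and -110 to -103 of Atf3. The letters TGACGTGG, which ATF6 and XBP1 are known to bind, were found on either strand in 0 of the 11 promoters and in 0.676% of all promoters. A match is a description of letters and not of binding.

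In the mRNAs, the AU-rich nonamer UUAUUUAUU, a kind of element known to speed decay, was sought in the 3′ untranslated regions (3′ UTRs) because the chase measures decay. It was present in 2 of the 9 listed members and in 7.77% of 10089 transcripts. The shorter AUUUA went the other way, with at least 1 copy in 55.6% of members and 69.1% of all transcripts. At least 3 copies were present in 33.3% and 37.5%. The capitals below mark the nonamer.
Ppp1r15a, chr7:45522951-45522979, reverse strand: ccuaUUAUUUAUUUAUUUAUUUAUUugaa
Chac1, chr2:119353779-119353795, forward strand: accuUUAUUUAUUgcac
Ppp1r15a holds 4 overlapping copies, at bases 18 to 38 of a 3′ UTR of 76 bases, and Chac1 holds 1, at bases 193 to 201 of 791 bases. The 3′ UTRs of the members were short, with a median of 591 bases against 1096 bases over all transcripts, and those of Ppp1r15a and Atf4 (81 bases) lay at percentiles 3.58 and 3.91. At least 2 ATG triplets upstream of the coding sequence were present in 6 of 9 members (Atf4, Atf5, Ddit3, Asns, Ppp1r15a and Eif2ak3) and in 27.5% of all transcripts. The codon measures that the study asked about were near those of all transcripts, with a median share of UUU among phenylalanine codons of 45.2% against 44.4% and of AAA among lysine codons of 33.3% against 37.5%.

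The first question was whether the level of labelled mRNA before the chase differed between the cell types. A limma fit on log2(FPKM + 1) over the 8177 transcripts listed for both cell types called 0 of the 5 members listed for both, and 0 at an unadjusted p under 0.05. Calls covered 31.6% of all transcripts (14.1% were higher in OLs and 17.5% lower), and an unadjusted p under 0.05 covered 43.5%. The median difference of OLs from OPCs was -0.44 log2 units over the 5 members and -0.01 over all transcripts. Differences on this scale understate those of transcripts with few FPKM.

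A further 4 members, Ddit3, Trib3, Chac1 and Ppp1r15a, were listed for OLs but not for OPCs, which is 44.4% of the members listed for OLs, and 16.1% of all OL transcripts (1574 of 9751) had no OPC row. The tables leave out transcripts that were low at 0 h or at 0 early in the chase, and which of these removed an OPC row cannot be told apart here. No OPC value of these 4 genes was analysed here, and no fold against OPCs is given for them.

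**Figure D1:**
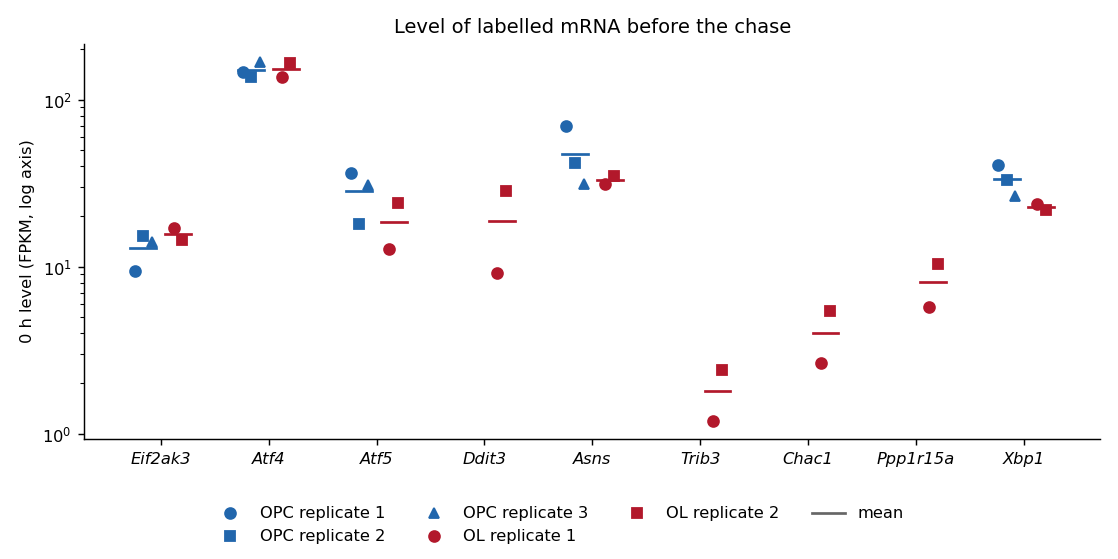
Level of labelled mRNA at 0 h of chase in FPKM (log axis) for the 9 listed members, with 1 point per replicate, 3 OPC replicates in blue and 2 OL replicates in red, and a bar at the mean. Atf4 is the most abundant member in all 5 replicates, from 137 to 168 FPKM, Xbp1 is the only member with all OPC values above both OL values, and 4 members have OL values alone.

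The second question was how fast each labelled mRNA left the pool. A limma slope of log2(FPKM + 1) on hours, fitted within each cell type, fell in 3 of 5 members in OPCs (Atf4, Xbp1 and Eif2ak3) and in 5 of 9 in OLs (the same 3, Trib3 and Ppp1r15a), and rose in none. Of all transcripts 81.9% fell and 5.06% rose in OPCs, and 68.9% fell and 1.98% rose in OLs. The median slope of the members was -0.49 log2 units per h in OPCs and -0.18 in OLs, beside -0.38 and -0.20 over all transcripts. These slopes carry the spike-in scale, and setting every library to the median of its replicate at 0 h moved the all-transcript medians to -0.02 in OPCs and 0.01 in OLs. This scale puts the median transcript near 0 by construction, so a slope on it is only relative to that transcript. The calls then split into 2894 slopes above 0 and 2146 below 0 in OPCs (432 and 6989 on the spike-in scale). In OLs they split into 3015 and 1879 (193 and 6716). On that scale the OPC slopes of Atf4, Xbp1 and Eif2ak3 were still below 0, but of these only Atf4 passed (limma adjusted p 0.0364, against 0.0516 for Xbp1 and 0.218 for Eif2ak3). Those of Asns and Atf5 lay above that of the median transcript (0.44 and 0.47, limma adjusted p 4.65e-08 and 8.42e-08). In OLs only the slopes of Trib3 and Xbp1 were below 0 and passed (-0.17 and -0.16, adjusted p 0.0169 and 0.0305). Those of Atf5, Ddit3, Asns and Ppp1r15a lay above that of the median transcript (0.31, 0.23, 0.18 and 0.12, adjusted p 7.55e-06, 0.0106, 0.000353 and 0.0263), which does not mean that their levels rose.

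The third question was whether decay differed between OPCs and OLs. One slope per replicate was compared by limma over the 8177 shared transcripts, and 1 of 5 members was called, Atf4, whose decline was less steep in OLs. Over all transcripts 23.8% were called, 23.7% less steep and 0.0856% steeper in OLs, so a share of 1 in 5 is near the background. With libraries set to equal medians 131 of the 8177 transcripts (120 less steep, 11 steeper) and 0 members were called, and the median difference over all transcripts moved from 0.14 to -0.03 log2 units per h. The deposited half-lives were compared in the same way over the 8112 transcripts that have 5 of them. Of all transcripts 3.54% were called, 3.39% longer and 0.148% shorter in OLs, and 0 of 5 members, with 1 member and 23% of all transcripts at an unadjusted p under 0.05. The median difference in log2 half-life was 0.57 over the members and 0.37 over all transcripts.

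**Figure D2:**
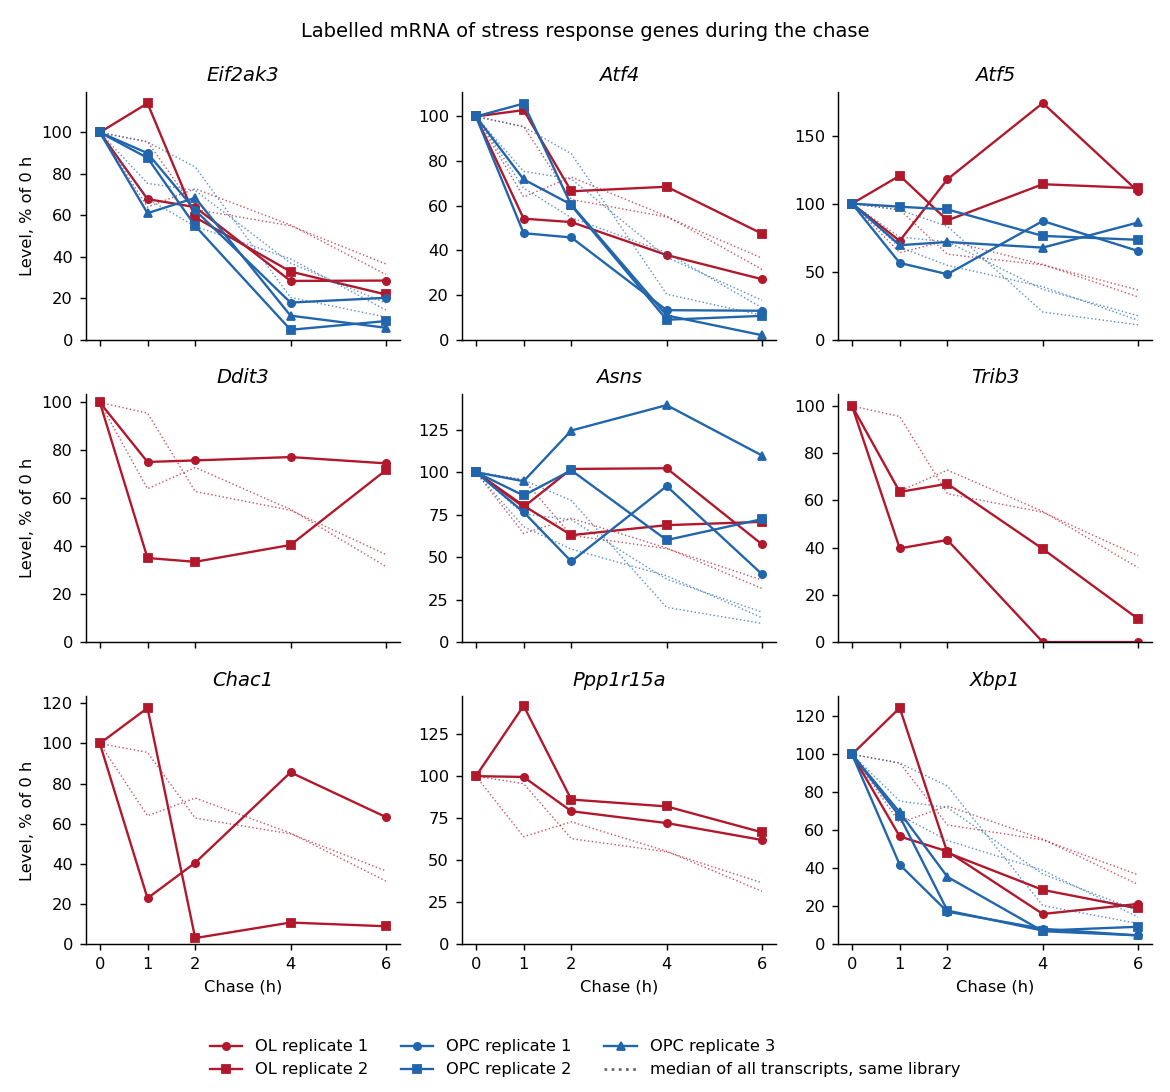
Level of each listed member as a percent of its own 0 h level (y axis) against hours of chase (x axis), with 1 line per replicate, OPCs in blue and OLs in red, and dotted lines for the median of all transcripts of the same libraries. Eif2ak3, Atf4 and Xbp1 fall to 2.07% to 20.3% in OPCs and 18.9% to 47.5% in OLs by 6 h, while Atf5 and Asns end at 40.0% or more in all 5 replicates. The values carry the spike-in scale, and with libraries set to equal medians the OL slope of Atf4 is 0.04.

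The sensor of the set is Eif2ak3 (chr6:70844515-70905245, forward strand, 17 exons), which encodes PERK, the eIF2 kinase of the endoplasmic reticulum. Its 0 h level was 9.42, 15.2 and 14.1 FPKM in OPC replicates 1, 2 and 3 and 17.0 and 14.4 FPKM in OL replicates 1 and 2. The groups overlapped, and the difference of 0.29 ± 0.28 log2 units (SE) did not pass (limma adjusted p 0.464).

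Eif2ak3 mRNA was at 18%, 4.85% and 11.6% of its 0 h level after 4 h in OPCs and at 28.4% and 32.9% in OLs, and both OL values lay above all OPC values. Within their libraries these values overlapped, at percentiles 21.4 to 28.1 in OPCs and 23.4 and 23.6 in OLs. It fell by 0.49 ± 0.07 log2 units per h in OPCs (limma adjusted p 6.81e-07) and by 0.32 ± 0.05 in OLs (2.52e-05), and on the scale of equal library medians neither slope passed (-0.11 and -0.10, adjusted p 0.218 and 0.103). The slopes of the replicates were not told apart between the cell types (difference 0.17 ± 0.09, adjusted p 0.163).

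The half-life of Eif2ak3 was 2.60, 1.96 and 1.40 h in OPCs and 3.11 and 2.63 h in OLs. Both OL values were above the 3 OPC values, by 0.03 h at the nearest, and the difference did not pass (log2 difference 0.57 ± 0.32, limma adjusted p 0.431). Within their replicates the values overlapped, at percentiles 54.0, 44.7 and 15.1 in OPCs and 39.6 and 28.4 in OLs. Centred on the replicate median the difference changed sign, as given below. The value of 1.96 h in OPC replicate 2 is one that 25.6% of transcripts of that replicate share, as described for Atf4 below.

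Atf4 (chr15:80255184-80257541, forward strand, 3 exons) encodes the transcription factor at the centre of the response, and its 5′ UTR of 594 bases holds 3 upstream ATG triplets. At 0 h it was at 147, 137 and 168 FPKM in OPCs and at 137 and 166 FPKM in OLs. The 2 sets covered almost the same range, the log2 difference was 0.01 ± 0.18 (adjusted p 0.982), its sign turned under 4 of 9 alternatives, and the level lay at percentiles 94.3 to 97.1 of the 0 h libraries.

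Between 2 h and 4 h of chase the cell types parted on the spike-in scale. At 2 h Atf4 mRNA was at 45.8%, 60.2% and 60.5% of its 0 h level in OPCs and at 52.7% and 66.5% in OLs, which overlap. At 4 h it was at 13.3%, 9.0% and 10.9% in OPCs and at 38.0% and 68.6% in OLs, so that the lowest OL value was 2.86 times the highest OPC value. At 6 h it was at 13.0%, 10.7% and 2.07% in OPCs and at 27.1% and 47.5% in OLs, again without overlap.

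The median transcript moved in the same direction, being at 39.0%, 20.4% and 37.0% in the 4 h libraries of OPCs and at 55.4% and 55.0% in those of OLs. Relative to that median Atf4 stood at 0.295 to 0.441 times in OPCs at 4 h, at 0.686 times in OL replicate 1 and at 1.25 times in OL replicate 2. It was thus below the median transcript in 4 of the 5 libraries at 4 h and above it in 1. At 6 h the same ratio was 0.907, 0.977 and 0.117 in OPCs and 0.861 in OL replicate 1, and OL replicate 2 was above the median transcript. On this measure the cell types thus overlapped at 6 h.

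The slope of Atf4 was -0.49, -0.65 and -0.91 log2 units per h in OPCs and -0.27 and -0.18 in OLs, with no overlap. Atf4 fell in OPCs by 0.68 ± 0.06 (limma adjusted p 9.65e-09) and in OLs by 0.22 ± 0.04 (adjusted p 0.000118), but the OL slope was 0.04 with libraries set to equal medians. The difference between the cell types, 0.46 ± 0.11 log2 units per h, passed (adjusted p 0.0133) and ranked 235 of 8177 transcripts from the top. It did not pass without OL replicate 1 (0.51, adjusted p 0.0916), without OL replicate 2 (0.41, adjusted p 0.119), with a pseudocount of 0.1 (0.48, adjusted p 0.0960) or with libraries set to equal medians (0.22, adjusted p 0.383).

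**Figure D3:**
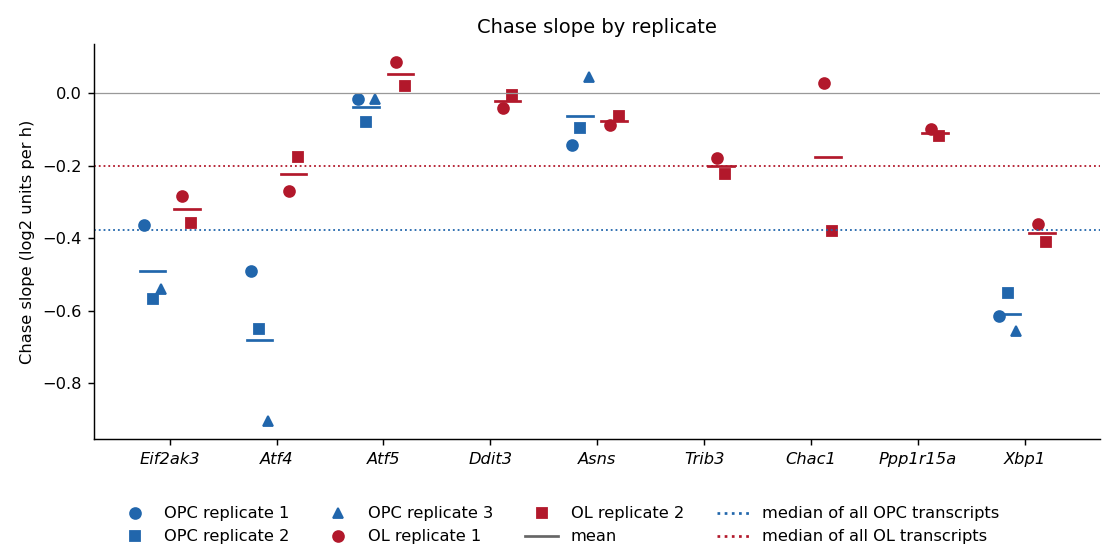
Least-squares slope of log2(FPKM + 1) on hours of chase for each listed member (y axis, log2 units per h), with 1 point per replicate, a bar at the mean, a grey line at 0 and dotted lines at the median slope of all OPC (-0.38) and all OL transcripts (-0.20). Atf4, Xbp1, Atf5 and, by a narrow gap, Eif2ak3 have all OPC points below both OL points, Asns does not, and with libraries set to equal medians the Atf4 difference is 0.22 in place of 0.46 and no longer passes.

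The half-life of Atf4 was 1.37, 1.96 and 1.96 h in OPCs and 2.86 and 5.59 h in OLs. All OL values were above all OPC values, at 2.30 times on average over log2 values, but the difference of 1.20 ± 0.39 log2 units did not pass over all transcripts (limma p 0.0451, adjusted p 0.205). The median half-life of a replicate was also longer in OLs, at 4.15 and 4.05 h against 2.33, 2.05 and 2.79 h in OPCs. Within their replicates the Atf4 values lay at percentiles 22.9, 34.7 and 34.2 in OPCs and 36.0 and 61.6 in OLs. The value of 1.96 h in OPC replicates 2 and 3 is shared to 6 decimals by 2174 of 8491 transcripts (25.6%) in replicate 2 and by 631 (7.43%) in replicate 3. In 100% of these the 1 h and 2 h points lay on the same side of the fitted curve. The 4 h and 6 h points lay on the opposite side. With points placed so, the summed absolute deviation stops changing with the half-life at this value, whatever the distances. The equal half-lives therefore do not show that these replicates agreed, and at 1 h Atf4 was at 106% in one and at 71.8% in the other.

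**Figure D4:**
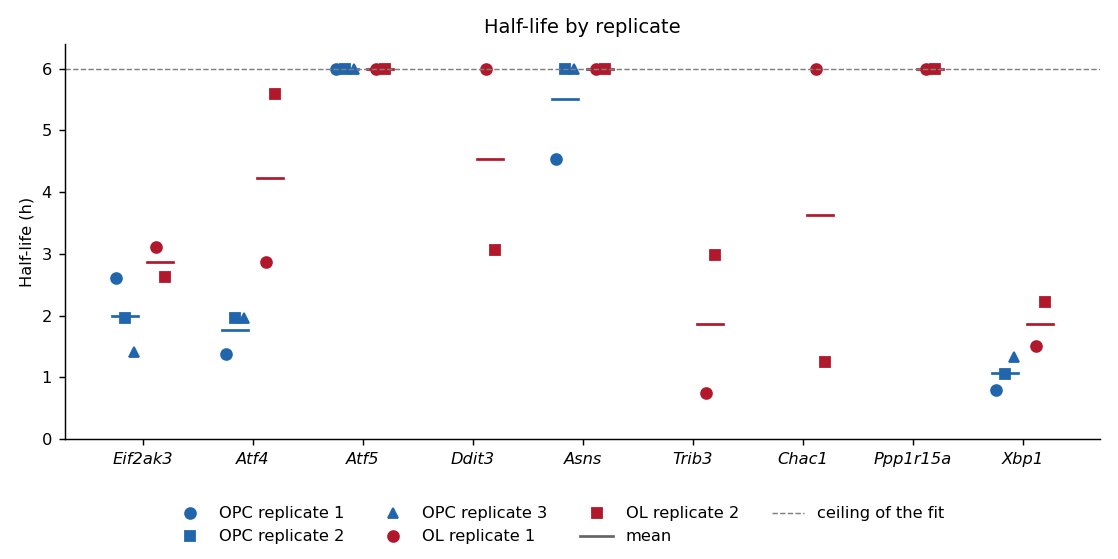
Deposited half-life in hours (y axis) of each listed member, with 1 point per replicate, OPCs in blue and OLs in red, a bar at the mean and a dashed line at the 6 h ceiling of the fit. Xbp1 has the shortest OPC half-lives, from 0.797 to 1.34 h, Atf5 is at the ceiling in all 5 replicates, and the 2 OL replicates of Atf4, Ddit3, Trib3 and Chac1 lie more than 2 h apart.

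Atf5 (chr7:44812256-44816658, reverse strand) encodes a relative of ATF4 that is likewise translated through upstream reading frames. Its 0 h level was 36.4, 18.1 and 30.9 FPKM in OPCs and 12.8 and 24.2 FPKM in OLs. OPC replicate 2 lay between the OL values, and the difference of -0.61 ± 0.35 did not pass (limma adjusted p 0.209), but did without that replicate (-0.89, adjusted p 0.0475). Of 9 alternatives this was the only 1 under which it passed, and all 9 kept its sign.

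Labelled Atf5 mRNA showed no steady fall over the chase. In OPCs it was at 56.4%, 97.7% and 69.5% of its 0 h level at 1 h and at 48.2%, 95.7% and 71.8% at 2 h, close to the median transcript (0.831 to 1.15 times). At 6 h it was at 65.2%, 73.4% and 86.1% of its 0 h level in OPCs, which is 4.54 to 6.69 times the median transcript, and at 109% and 111% in OLs, which is 3.05 to 3.46 times. The slopes of the replicates were -0.02, -0.08 and -0.02 log2 units per h in OPCs and 0.09 and 0.02 in OLs, neither cell type's slope passed (adjusted p 0.416 and 0.320), and neither did their difference (0.09 ± 0.08, adjusted p 0.407), which was -0.17 with libraries set to equal medians. Its half-life was at the 6 h ceiling in all 5 replicates, as was the case in every replicate for 1481 of 8491 OPC transcripts and 2798 of 9698 OL transcripts, so half-lives cannot compare the cell types here.

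Ddit3 (chr10:127290774-127296288, forward strand) encodes CHOP, a factor that acts late in the response and is tied to cell death. Its OL levels at 0 h were 9.21 and 28.3 FPKM, a difference of 3.08 times between replicates. In OL replicate 1 it stayed at 74.6% to 77.2% of its 0 h level from 1 h to 6 h, while in replicate 2 it was at 35.1%, 33.5%, 40.5% and 71.7% at 1, 2, 4 and 6 h.

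No Ddit3 slope was called (-0.02 ± 0.06 log2 units per h, adjusted p 0.750), and with libraries set to equal medians the slope was 0.23 (adjusted p 0.0106). The deposited half-lives were 6 h, the ceiling, and 3.07 h. A refit of the second by the same criterion gave 1.27 h, the only one of 33 member values that was not within 0.01 h of the deposited one. The level at 6 h, above those at 1, 2 and 4 h, is not a shape that an exponential decay can take.

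Among the targets, Asns (chr6:7675169-7693254, reverse strand), the first of the promoters shown above, encodes asparagine synthetase. Its 0 h level was 69.3, 42.0 and 31.5 FPKM in OPCs and 31.3 and 34.9 FPKM in OLs. The highest OPC value was 2.20 times the lowest, the lowest lay between the OL values, and the difference of -0.44 ± 0.30 did not pass (adjusted p 0.290).

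Asns, like Atf5, ended the chase above the median transcript in all 5 replicates. At 6 h it was at 40.0%, 72.4% and 110% of its 0 h level in OPCs, 2.78 to 6.59 times the median transcript, and at 57.5% and 70.8% in OLs, 1.83 to 1.94 times. The slopes were -0.06 ± 0.04 log2 units per h in OPCs and -0.08 ± 0.04 in OLs and did not pass (adjusted p 0.177 and 0.110), the first did without OPC replicate 3 (-0.12, adjusted p 0.0485), and their difference was -0.01 ± 0.08 (adjusted p 0.933). The half-life was 4.53 h in OPC replicate 1 and at the 6 h ceiling in the other 4 replicates.

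Trib3 (chr2:152337422-152344032, reverse strand) encodes a pseudokinase that CHOP and ATF4 induce and that binds AKT. With 1.19 and 2.39 FPKM at 0 h in OLs it was the least abundant listed member, at percentiles 0.779 and 4.53 of its libraries. It was listed at 0 at 4 h and 6 h in OL replicate 1 and was at 39.5% and 9.80% in OL replicate 2.

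The slope of Trib3 was -0.18 and -0.22 log2 units per h in OLs, and it fell by 0.20 ± 0.05 (adjusted p 0.000941). The half-lives of 0.750 and 2.98 h differed by a factor of 3.98 between the 2 replicates.

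Chac1 (chr2:119351229-119354381, forward strand) encodes an enzyme that breaks down glutathione and is a target of ATF4. Its OL levels at 0 h were 2.67 and 5.41 FPKM. In OL replicate 1 it was at 23.0%, 40.6%, 85.6% and 63.4% at 1, 2, 4 and 6 h, and in OL replicate 2 at 118%, 3.13%, 10.9% and 9.0%.

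Both replicates of Chac1 thus ended below their 0 h level by different courses, with slopes of 0.03 and -0.38 log2 units per h. The joint slope of -0.18 ± 0.10 did not pass (adjusted p 0.111). The deposited half-lives were 6 h and 1.25 h, which span percentiles 80.1 to 2.92 of their replicates.

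Ppp1r15a (chr7:45522917-45526268, reverse strand) encodes GADD34, the subunit that directs protein phosphatase 1 to eIF2 and so ends the response. Its OL levels at 0 h were 5.73 and 10.4 FPKM. At 6 h it was at 62.0% and 66.6% of its 0 h level in OLs, 1.97 and 1.82 times the median transcript.

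In both replicates Ppp1r15a was above the median transcript at every time point, and its half-life was at the 6 h ceiling. Its 3′ UTR is the one shown above with 4 overlapping nonamers. With slopes of -0.10 and -0.12 log2 units per h in the replicates, it fell by 0.11 ± 0.05 (limma adjusted p 0.0437) on the spike-in scale. With libraries set to equal medians the slope was 0.12 (adjusted p 0.0263), which is less steep than that of the median transcript. The fall passed with a pseudocount of 0.1 and with a filter at 5 FPKM (adjusted p 0.0362 and 0.0386), and did not without the 6 h libraries (adjusted p 0.265) or without the replicate block (adjusted p 0.186).

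Xbp1 (chr11:5520659-5525893, forward strand) belongs to the neighbouring IRE1 arm of the unfolded protein response, whose kinase splices its mRNA. The tables hold 1 row for the gene, so spliced and unspliced forms cannot be told apart. Its 0 h level was 40.8, 33.0 and 26.6 FPKM in OPCs and 23.7 and 21.8 FPKM in OLs, all OPC values being above both OL values, but the difference of -0.52 ± 0.23 did not pass (adjusted p 0.116).

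Xbp1 left the labelled pool of OPCs early. At 2 h it was at 17.2%, 17.8% and 35.5% of its 0 h level in OPCs, when the median transcript was at 54.7%, 83.3% and 72.0%, and at 48.9% and 48.2% in OLs. Those OPC values lay at percentiles 3.50 to 13.2 of their libraries and the OL values at 25 and 29.3. At 4 h it was at 6.92% to 8.19% in OPCs and at 16.0% and 28.7% in OLs. Within their libraries the 2 sets then overlapped, at percentiles 9.42 to 29.4 in OPCs and 9.80 and 18.3 in OLs at 4 h, and 20.8 to 44.8 and 23.3 and 33.4 at 6 h.

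Xbp1 fell by 0.61 ± 0.07 log2 units per h in OPCs (adjusted p 4.78e-08) and by 0.39 ± 0.06 in OLs (adjusted p 1.64e-05), and with libraries set to equal medians the OPC slope was -0.19 (adjusted p 0.0516). The slopes of -0.62, -0.55 and -0.66 in OPC replicates and -0.36 and -0.41 in OL replicates did not overlap, and their difference of 0.22 ± 0.08 missed the threshold (adjusted p 0.0546). It passed without OPC replicate 2 (0.25, adjusted p 0.0392) and was 0.02 with libraries set to equal medians (adjusted p 0.915). Half-lives were 0.797, 1.06 and 1.34 h in OPCs and 1.51 and 2.22 h in OLs, without overlap, and this difference did not pass either (0.82 ± 0.32, adjusted p 0.270). Centred on the median of each replicate it was -0.09 (adjusted p 0.872).

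In the order of their half-lives the 5 members listed for both cell types ran Xbp1, Atf4, Eif2ak3, Asns and Atf5 by the mean in OPCs (1.06, 1.76, 1.99, 5.51 and 6 h). Atf4 and Eif2ak3 overlapped in OPCs and did not differ beyond their spread, and Asns was at the ceiling in 2 of 3 OPC replicates and Atf5 in 3 of 3. In OLs the means were 1.87 h for Xbp1, 2.87 h for Eif2ak3 and 4.23 h for Atf4, with Atf4 and Eif2ak3 again overlapping.

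The rest of the pathway was described by 3 lists. Of 17 genes for eIF2 kinases, eIF2, eIF2B and eIF2 phosphatases, 14 were listed for both cell types, and at 0 h 2 were higher in OLs, 1 was lower and 11 were not called, with a median difference of -0.04 log2 units, beside 14.1% higher and 17.5% lower over all transcripts. Ppp1cb, a catalytic subunit of protein phosphatase 1, was higher (99.9 ± 13.4 FPKM in OPCs, SD, n = 3, and 218 ± 34.0 FPKM in OLs, n = 2, log2 difference 1.12, limma adjusted p 0.00249), and Ppp1cc, another such subunit, was lower (117 ± 5.45 and 59.1 ± 13.3 FPKM, -0.99, adjusted p 0.00435). Dnajc3, an inhibitor of eIF2 kinases, was higher (0.84, adjusted p 0.0313).

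The slopes of 3 of the 14 were less steep in OLs, beside 23.7% of all transcripts, and none of the 3 passed with libraries set to equal medians (adjusted p 0.304 for Eif2b1, 0.127 for Eif2b2 and 0.162 for Eif2b4). These encode subunits of eIF2B, of which Eif2b5 was also measured and not called (0.03, adjusted p 0.802). The differences were 0.46 ± 0.09 log2 units per h for Eif2b2 (adjusted p 0.00774), 0.42 ± 0.10 for Eif2b4 (adjusted p 0.0124) and 0.30 ± 0.09 for Eif2b1 (adjusted p 0.0384). Eif2b2 had slopes of -0.66, -0.86 and -0.55 in OPCs and -0.24 and -0.21 in OLs, which did not overlap. No half-life of this list was called, with 4 of 14 at an unadjusted p under 0.05 (23% of all transcripts).

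Of 30 targets and partners of ATF4 and CHOP, 25 were listed for both cell types, and at 0 h 3 were higher in OLs, 8 were lower and 14 were not called, beside 31.6% called over all transcripts (14.1% higher and 17.5% lower). The median difference was -0.44 log2 units. Of the 3 serine synthesis enzymes Phgdh was lower in OLs (-0.93, adjusted p 0.0293), and Psat1 (-0.36, adjusted p 0.192) and Psph (-0.27, adjusted p 0.331) were not called. Lower in OLs were also the one-carbon enzymes Shmt2 (-1.98, adjusted p 0.000335) and Mthfd2 (-1.75, adjusted p 0.000678).

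Shmt2 was at 91.7 ± 22.3 FPKM in OPCs (n = 3) and at 22.1 ± 2.41 FPKM in OLs (n = 2), with no overlap. Also lower were Eif4ebp1, which restrains cap-dependent translation (-2.24, adjusted p 0.000660), the amino acid transporter Slc7a1 (-1.40, adjusted p 0.00121), Pck2 (-1.15, adjusted p 0.0334) and the glycyl-tRNA synthetase Gars (-0.68, adjusted p 0.0156), with 1 further gene. Higher in OLs were the lipoprotein receptor Vldlr (3.59 ± 1.20 against 32.6 ± 10.9 FPKM, 2.87, adjusted p 0.000319), the cystine transporter Slc7a11 (1.09, adjusted p 0.0123) and the mTORC1 inhibitor Ddit4 (0.88, adjusted p 0.0172).

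In this list 6 of 25 slopes were less steep in OLs, beside the 23.7% of all transcripts given above, and none was steeper. They were those of Sesn2, an inhibitor of mTORC1 (0.48 ± 0.09 log2 units per h, adjusted p 0.00642), the transporter chain Slc3a2 (0.45 ± 0.09, adjusted p 0.00679), the cysteinyl-tRNA synthetase Cars (0.37, adjusted p 0.0147), the bZIP factors Cebpg (0.36, adjusted p 0.0128) and Cebpb (0.29, adjusted p 0.0347), and Mthfd2 (0.30, adjusted p 0.0396). The slopes of Sesn2 were -0.59, -0.80 and -0.67 in OPCs and -0.10 and -0.31 in OLs. Of the half-lives 0 of 25 were called, with 4 at an unadjusted p under 0.05, and 3 of these 4 were longer in OLs (Slc3a2, Sesn2 and Cars) and 1 was shorter (Vldlr, -1.60, adjusted p 0.136).

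All 20 genes of the other arms of the unfolded protein response were listed for both cell types, and 2 were higher in OLs at 0 h, 5 lower and 13 not called, with a median difference of -0.25 log2 units, beside the 31.6% of all transcripts called. Dnajb9, a chaperone partner of BiP (1.39, adjusted p 0.00985), and the sensor Atf6 (0.84, adjusted p 0.0370) were higher. Lower were Pdia6 (-0.87, adjusted p 0.0110), Creld2 (-0.84, adjusted p 0.0112), Manf (-0.74, adjusted p 0.0289), the protease Mbtps1 that cuts ATF6 (-0.65, adjusted p 0.0310) and the translocon subunit Sec61b (-0.61, adjusted p 0.0372, but 0.0566 with libraries set to equal medians). Less steep in OLs were the slopes of Creld2 (0.46, adjusted p 0.0135), Dnajb9 (0.39, adjusted p 0.0298) and Herpud1, a factor of the degradation of proteins from the endoplasmic reticulum (0.37, adjusted p 0.0124), which makes 3 of 20 beside 23.7% of all transcripts. Of the half-lives 0 of 20 were called, with 2 at an unadjusted p under 0.05, beside 3.54% and 23% of all transcripts.

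With libraries set to equal medians every called difference of the 3 lists kept its sign, at 0 h and in slope. At 0 h 3 of 3, 10 of 11 (not Aars, an aminoacyl-tRNA synthetase, adjusted p 0.0563) and 6 of 7 (not Sec61b) still passed, and in slope 0 of 3, 1 of 6 (Cebpg, adjusted p 0.0430) and 1 of 3 (Herpud1, adjusted p 0.0471).

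Within OPCs 12 of 14, 20 of 25 and 12 of 20 transcripts of these lists fell during the chase, beside 81.9% of all transcripts, and 0, 1 and 2 rose. Within OLs 11 of 15, 14 of 26 and 11 of 20 fell, beside 68.9% of all transcripts, and none rose. These directions are those of the spike-in scale. Equal library medians put the median transcript near 0 by construction, so signs on that scale do not test these directions. There 5 of 12, 8 of 21 and 7 of 14 called slopes kept their sign in OPCs, and 3, 4 and 6 of these still passed. In OLs 7 of 11, 6 of 14 and 7 of 11 kept it, and 2, 1 and 0 of these still passed. In OPCs the steepest of them was Herpud1 (-0.79 log2 units per h) and in OLs Vldlr (-0.49), and those that rose in OPCs were Phgdh (0.10), Sec61b (0.12) and the chaperone Hsp90b1 (0.16).

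The transcripts most like Atf4 over the 25 libraries were sought by Pearson's r of log2(FPKM + 1) less the library median, among 7561 transcripts. They were Ube2g2 (0.854), Slc35f6 (0.850), Tmem165 (0.834), Mrps2 (0.830) and Hars2 (0.808). Of the members, Eif2ak3 had an r of 0.527 (rank 609), Xbp1 of 0.459 (rank 900), Atf5 of -0.522 (rank 5584) and Asns of -0.697 (rank 7311). The points share libraries, time courses and cell types, so these values describe likeness of profile only.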

How the data were processed

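The labels gave 26 samples, of which 25 chase libraries were analysed (15 OPC, 10 OL), and the control without biotin was not analysed here. The authors aligned reads to GRCm38 with HISAT2 2.1.0, and FPKM values were made with StringTie 1.3.5 over canonical transcripts of GENCODE vM9 and scaled by the authors to spike-ins, leaving out transcripts under 1 FPKM at 0 h or at 0 FPKM at 1 and 2 h. The decimals show the 0 h columns to be unscaled FPKM. The authors fitted the deposited half-lives in hours per transcript and replicate by least absolute deviations of an exponential decay and set those above 6 h to a ceiling, taken here as 6 h. A refit came within 0.01 h for 98.5% to 99.9% of transcripts per replicate.

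FPKM and half-lives were compared with limma 3.58.1 in R 4.3.3. The 0 h level and the slopes were taken from log2(FPKM + 1) with no filter on low values, slopes within a cell type carried the replicate as a block, and cell types were compared over 1 slope, or 1 log2 half-life, per replicate. Adjusted p-values are Benjamini-Hochberg values over all transcripts tested, and a call is an adjusted p under 0.05. An exact permutation test of 3 replicates against 2 cannot fall below 0.1 and was not run. P-values of comparisons between the cell types measure the spread between these replicates. Those of slopes within a cell type measure mainly the scatter of the chase libraries around a line, and not the spread between cultures. The limma fits and the refit were tested on simulated data. Transcript models came from GENCODE M21 of the same build. The members, the pathway lists and the tests were chosen with earlier results of these data known. From the lists, transcripts called in a comparison between the cell types are named, at most 20 by size of change, and the 5 transcripts nearest to Atf4 by correlation, with a mean 0 h level of at least 5 FPKM. Alternatives changed the pseudocount, filter, scaling, time points, block and replicates.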

Additional observations from a re-analysis of the deposited data

Results flagged for a closer look

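The chase slope of Atf4 differed between the cell types by a test of the difference itself, at 0.46 ± 0.11 log2 units per h (OL minus OPC, limma adjusted p 0.0133), and the slope was less steep in 2 of 2 OL replicates than in 3 of 3 OPC replicates. Over all transcripts 23.7% were called less steep in OLs, so a call in this direction was common. The adjusted p ranged from 0.000808 to 0.383 over 11 alternatives, which share the same libraries, and passed in 7 of them. As given above, it did not pass with libraries set to equal medians (0.22, adjusted p 0.383), with a pseudocount of 0.1 or without either OL replicate.

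The chase slope of Atf5 was below 0 in all 3 OPC replicates and above 0 in both OL replicates, with a difference of 0.091 log2 units per h. That difference did not pass (adjusted p 0.407, 0.20 to 0.773 over the alternatives), and with libraries set to equal medians it was -0.17.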

How the results depend on the processing

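Each choice was changed alone. The count of members called in the comparison of slopes between the cell types was 1, and became 0 with a pseudocount of 0.1, 0 with libraries set to the 0 h median, and 0 to 2 when 1 replicate was left out (2 without OPC replicate 2, 0 without either OL replicate). The count at 0 h, which was 0, became 1 without OPC replicate 2 and 0 to 1 over the replicates, and the OL slopes called, which were 5, became 3 without OL replicate 2 and 3 to 5 over the replicates. Between the cell types, leaving out an OL replicate assumes that the lone one varies like the OPC replicates. Within OLs it leaves 5 libraries of 1 replicate and no spread between replicates, so those counts test nothing about replicates. The cause of these changes was not tested.

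Several values changed sign, among which the OL slopes of Atf4 and Ppp1r15a had passed and all others had not. For the 0 h level of Atf4 the value was -0.026 with equal library medians, and -0.01, -0.06 and -0.13 without OPC replicate 1, OPC replicate 2 or OL replicate 2 (range -0.13 to 0.15 over the replicates). For half-lives, centring on the replicate median gave -0.77 for Asns, -0.33 for Eif2ak3 and -0.087 for Xbp1, percentiles within the replicate gave -0.80 points for Asns and -7.39 points for Eif2ak3, and for Asns a refit without 6 h gave -0.011 and 1 mean decay curve gave -0.34. With libraries set to the 0 h median, the OPC slopes of Asns and Atf5 were 0.44 and 0.47, the OL slopes of Ddit3, Asns, Ppp1r15a and Atf4 were 0.23, 0.18, 0.12 and 0.035, and the difference in slope of Atf5 was -0.17. Without OL replicate 2 the OL slope of Chac1 was 0.028, and -0.38 without OL replicate 1. The difference in slope of Asns was 0.043 with the replicate block, 0.043 without OPC replicate 3, 0.00048 without OL replicate 1 and -0.051 without OPC replicate 1.

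The sources do not say which OPC and OL numbers match, so the numbers were not taken to pair samples. Correlations of deviations across transcripts, over the 0 h level, the half-life and the chase, ran from -0.188 to 0.0589 for replicate 1 and from -0.246 to 0.0102 for replicate 2, while the library medians at 1 h were 67.9% and 64.0% in replicate 1 and 95.3% and 95.5% in replicate 2 (OPC and OL). With 2 OL replicates these correlations mirror each other, and the check cannot show that pairing is absent. With the replicate block the slope of Atf4 differed by 0.35 (adjusted p 0.00807), and the block changed no count of members between the cell types. Without the block the OL slope of Ppp1r15a no longer passed (adjusted p 0.186).

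Over all transcripts, the 1944 calls in the comparison of slopes became 569 with a pseudocount of 0.1, 131 with libraries set to the 0 h median, 1240 without 6 h, and 88 and 0 without OL replicate 1 or 2. The 287 half-life calls became 1 when centred, 23 as percentiles, 13 without 6 h, 600 in hours, 0 with the replicate block and 167 to 236 without 1 replicate, and the 2586 calls at 0 h 1183 to 2912.

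Depth is unknown and spike-in factors are shared by a whole library, so an error in one moves all members of that library together. Half-lives at the ceiling, and those of low transcripts such as Trib3 (1.19 and 2.39 FPKM at 0 h) and Chac1 (2.67 and 5.41 FPKM), resolve little, and pull-down background was not subtracted from any value.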
